A study of Mus musculus with 12 samples.

Results

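The comparison covers 6 of the 12 libraries of the series, all from whole pancreatic islets of mice: 3 after 1 week of doxycycline (Dox) and 3 without it (No Dox). They were chosen by their labelled tissue and treatment, and every gene of the table entered: 22711 gene symbols, of which 14443 passed a filter on low values and were tested. All mice carried the transgenes RIP-rtTA and TetO-VEGF-A, the No Dox mice included. RIP is the rat insulin promoter, so the Dox-dependent activator rtTA is made in beta cells and, with Dox, drives VEGF-A there. The labels give no age or sex, and do not say whether libraries came from separate animals or pools, so p-values measure the spread between these libraries, which may be technical. Dox itself and the transgene it switches on cannot be told apart, since no group had Dox without the transgenes. The other 6 libraries of the series are CD11b-sorted macrophages and CD31-sorted endothelial cells, 3 each, from dispersed islets of such mice after 1 week of Dox. They serve here to show in which fraction a gene's signal was higher, and entered the test only in 1 alternative, with the 4 groups fitted together.

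Islets are clusters of hormone cells, mostly beta cells making insulin, threaded by fenestrated capillaries. Beta cells make VEGF-A, which acts on endothelial cells through the receptor tyrosine kinases Flt1 and Kdr with neuropilin co-receptors, and is known to drive endothelial division, permeability and capillary growth. Growing capillaries lay down a basement membrane of type IV collagen and laminins and take on pericytes, the contractile cells of the vessel wall. In whole tissue, fewer cells of a type and less RNA per cell cannot be told apart.

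The values are the authors' normalized signal, linear with a floor of 1, and summed to between 17635776 and 25226447 per islet library. Read numbers were not used here, so the depth is unknown and no counting interval is attached. All differences below are Dox minus No Dox means of log2 of (signal + 1), from limma, with Benjamini-Hochberg adjusted p over the 14443 genes. A gene is called when that p is under 0.05, and "rose" and "fell" are kept for called genes. The labelled tissue held its markers: the beta cell genes Ins1 and Iapp stood at 32182 or more in each of the 6 libraries, and Gcg of alpha cells at 114500 or more. The first principal component, with 38.1% of the variance, separated the 3 Dox from the 3 No Dox libraries. The second, with 35.8%, set No Dox 2 and Dox 1 apart from the other 4. The same 2 libraries had an opposite trend with GC content to the others of their group. Their deviations from the gene's mean within the group correlated with GC at 0.65 and 0.58 (Spearman, across genes), against -0.33 to -0.45 in the others. Such deviations sum to 0 in each group, so part of the opposite sign is built in. Counts are therefore also given without this pair, which leaves 2 against 2.

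**Figure D1:**
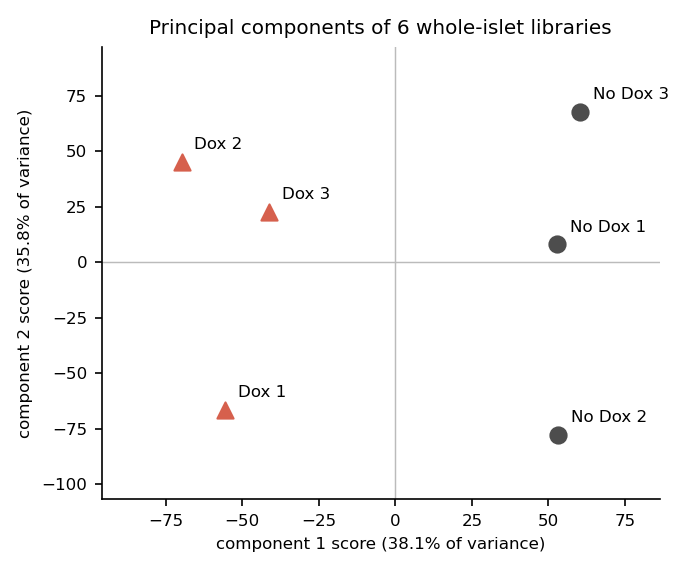
Scores of the 6 whole-islet libraries on the first and second principal components of log2 signal, in arbitrary units, circles for No Dox and triangles for Dox. The groups separate along the first component (38.1% of variance), while No Dox 2 and Dox 1 lie together at the bottom of the second (35.8%).

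After 1 week of Dox, genes of vessels, vessel wall, matrix, macrophages and dividing cells were higher in islets, and transcription factors, granule proteins and glucose sensors of beta cells were lower. In all, 829 of the 14443 tested genes were called (5.74%), 625 higher (4.33%) and 204 lower (1.41%). Of the 14443, 94 passed the filter through 1 group only, the other lying wholly below it, and 23 of the 829 calls were among them. The median size was 1.94 among the higher and -1.68 among the lower on the log2 scale, and 288 of the rises and 47 of the falls exceeded 4-fold. Separation of the groups without a test was more common: the 3 Dox values lay above all 3 No Dox values in 2270 genes (15.7%) and below them in 1392 (9.64%). Lack of overlap, given for single genes below, is therefore not read as a result. The median difference over all tested genes was 0.11, and it moved to -0.03 with quantile normalization and to -0.01 with median ratio rescaling. Rises then made up 60.2% and 64.1% of the calls, against 75.4% here, and 57.1% with each library's GC trend removed. All 829 genes kept their sign under each of the 17 alternatives run. The alternatives reuse the libraries from which the 829 were chosen, so the kept signs are not independent support. The count itself rested on single libraries. Without Dox 2 it fell to 5 genes (Kcne3, Fn1, Acta2, Prnd and Itgad), without Dox 3 to 87, without No Dox 1 to 457 and without the GC-apart pair to 302, of which 274 were among the 829. No gene but those 5 kept its call under every alternative fixed for this comparison, and 70, those 5 included, lost it at most once.

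**Figure D2:**
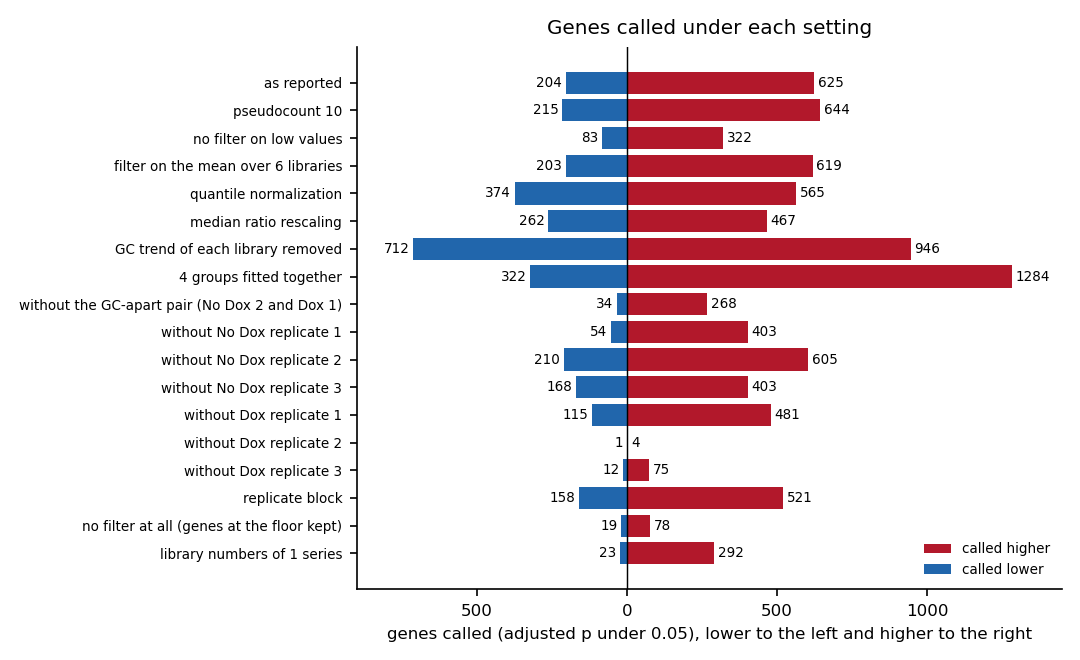
Number of genes called lower (left) and higher (right) in Dox islets, as reported and under each alternative. The reported counts are 204 and 625, and the bars nearly vanish without Dox replicate 2 (1 and 4).

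The 5 genes that stayed called without Dox 2 were picked by that criterion, so their wide separation does not stand for the other calls. The median log2 difference was 1.94 among all genes called higher and -1.68 among all called lower. Kcne3, a beta subunit of voltage-gated potassium channels, had a signal of 74.4, 51.2 and 70.2 without Dox and 1291, 1967 and 1016 with Dox. The No Dox values were all at or below 74.4, the Dox values all at or above 1016 (log2 difference 4.39, SE 0.41, adjusted p = 0.0059). Fn1, which encodes the matrix protein fibronectin, stood at 409.6, 472 and 715 without Dox and 7351, 7497 and 4648 with Dox (log2 difference 3.62, SE 0.34, adjusted p = 0.0059). Acta2, smooth muscle actin, stood at 420.0, 667 and 395 without Dox and 8333, 5140.3 and 4385 with Dox (log2 difference 3.57, SE 0.35, adjusted p = 0.00674). Prnd, the prion-like protein doppel, stood at 532, 350.2 and 404 without Dox and 3832, 6394 and 3324 with Dox (log2 difference 3.36, SE 0.34, adjusted p = 0.00711). In these 4 genes the highest No Dox value was far below the lowest Dox value. Itgad, the integrin alpha D chain of leukocytes, went the other way, with 1387, 606 and 607 without Dox and 30.0, 72.4 and 16.4 with Dox (log2 difference -4.55, SE 0.61, adjusted p = 0.0119). In build mm9, which the submitters' processing notes name, Fn1 (ENSMUSG00000026193, chromosome 1 from 71632094 to 71699774), Acta2 (ENSMUSG00000035783, chromosome 19 from 34315580 to 34329826) and Prnd (ENSMUSG00000027338, chromosome 2 from 131735693 to 131781866) are protein-coding genes. The Prnd interval overlaps nearly all of Prnp, the prion protein gene on the same strand, which was not called: it was at 4946, 4998 and 9679 without Dox and 2620.3, 5259 and 4347 with Dox (log2 difference -0.67, SE 0.38, adjusted p = 0.378). How reads of that shared stretch were assigned is not stated.

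The fall of Itgad cannot be read for that gene alone. Itgad (ENSMUSG00000070369, chromosome 7 from 135297890 to 135367330, plus strand) contains the whole of Cox6a2 (ENSMUSG00000030785, chromosome 7 from 135348950 to 135349880, minus strand), the muscle form of a cytochrome oxidase subunit, and whether the authors' counting used strand is not stated, so reads of the 2 genes cannot be told apart. Cox6a2 was at 204, 358 and 386 without Dox and 10.2, 16.2 and 6.14 with Dox (log2 difference -4.78, SE 0.60, adjusted p = 0.0099). It had the same pattern as Itgad, without overlap of the groups. The sorted CD11b fraction held little of either, 26.8 for Itgad and 6.95 for Cox6a2, while the neighbouring leukocyte integrin genes Itgam and Itgax were at 11422 and 9169 there. In islets Itgam and Itgax did not fall: their differences were 1.59 (adjusted p = 0.058) and 0.76 (0.433). Tgfb1i1, the next called gene on that stretch, rose by 2.02. Of the other genes named, Angpt2, Col18a1, Esm1, Foxc2, Trpm5 and Iapp also overlap another tested gene, with the same limit.

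Vegfa itself, the gene carried by the transgene, was not higher with Dox. Its signal was 3268, 4514 and 4118 without Dox and 1579.6, 2085 and 2418 with Dox, so all 3 Dox values lay below the No Dox values, with log2 difference -0.98, SE 0.30, adjusted p = 0.0853, which did not pass. The transgene's sequence and how much of it was counted as Vegfa are not stated either, so this value does not check its induction. Of the 5 VEGF receptor genes, 4 rose. Flt4, a receptor best known for VEGF-C, stood at 973, 1259.8 and 1093 without Dox and 2950.2, 3333 and 3108 with Dox (log2 difference 1.50, SE 0.27, adjusted p = 0.0171). For Nrp2, a neuropilin co-receptor, the values were 2908, 2807 and 2103 without Dox and 8253, 9105 and 7312 with Dox (log2 difference 1.67, SE 0.28, adjusted p = 0.0144). Flt1 followed at 16127, 17306 and 16197 without Dox and 34727, 55235 and 43138 with Dox (log2 difference 1.40, SE 0.34, adjusted p = 0.0447) and Kdr at 9769.6, 10205 and 7441 without Dox and 20870, 24264 and 18706 with Dox (log2 difference 1.22, SE 0.31, adjusted p = 0.0492). In each of these 4 genes the groups did not overlap, but Kdr and Flt1 passed narrowly. Nrp1 was at 19608, 12810 and 16638 without Dox and 28468, 40538 and 40203 with Dox and did not pass (log2 difference 1.16, SE 0.35, adjusted p = 0.085). Without the GC-apart pair, Kdr was no longer called (adjusted p = 0.0625) and the other 3 were.

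Genes of capillary and fenestrated endothelium rose together. Of its 18 tested members 15 rose and 0 fell, with a median of 1.88 over the list and 10 of 18 called without the GC-apart pair. Cdh5, the VE-cadherin of endothelial junctions, stood at 3228, 3679 and 3615 without Dox and 13918, 14805 and 9798 with Dox, with log2 difference 1.85, SE 0.29, adjusted p = 0.0124. Nid2, a nidogen of the capillary basement membrane, read 3491, 2328 and 4043 without Dox and 19017, 23398 and 15417 with Dox (log2 difference 2.57, SE 0.33, adjusted p = 0.0099). In both, the lowest Dox value was well above the highest No Dox value. Fabp4, a fatty acid binding protein of capillary endothelium, rose by 2.57. Aplnr, the apelin receptor, rose by 2.72, at 680.4, 949 and 925 without Dox and 8544, 6044 and 3303 with Dox. Plvap, the protein of fenestral diaphragms, was at 651, 1699.8 and 826 without Dox and 6454, 2676 and 2624 with Dox. It was highest in Dox 1 and No Dox 2, the GC-apart pair, and passed with an adjusted p of 0.0446. Esm1, a secreted product of tip cells, rose by 1.62 and Car4, a capillary carbonic anhydrase, was not called at 0.58. Cldn5, the claudin of endothelial tight junctions, was listed at 4.73, 2.84 and 5.99 without Dox and 91.0, 102 and 42.6 with Dox, so its No Dox values lay below the filter value of 15.5 and its fold depends on the 1 added before taking logs.

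Arterial, venous and lymphatic genes that were called were all higher. Of 14 arterial genes 4 rose, of 11 venous genes 5 and of 10 lymphatic genes 3, with list medians of 1.31, 1.41 and 0.83, and 0 fell in any of the 3. Without the GC-apart pair 2, 3 and 2 were called. The difference between these lists and the capillary list was not tested. Hey1 and Efnb2, a transcription factor and an ephrin of arteries, rose by 1.96 and 1.58. Mgp, matrix Gla protein, rose by 2.29, at 3725, 4239 and 5846 without Dox and 19962, 26636 and 20113 with Dox. Its means were 1385 in sorted endothelial cells and 786 in sorted macrophages, against 22237 in Dox islets. On the venous side, the transcription factor Nr2f2 rose by 1.49 and the leukocyte adhesion molecule Vcam1 by 2.13. Vcam1 was at 17101 in sorted macrophages and 225 in sorted endothelial cells, on the authors' signal scale. Among lymphatic genes Foxc2, Itga9 and Flt4 rose, while Prox1, a regulator of lymphatic identity that islet cells also express, was at -0.94 and was not called. Itga9 had a higher mean in sorted macrophages (9283) than in sorted endothelial cells (3554.5).

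Regulators of vessel growth were among the calls. Angpt2, the angiopoietin that endothelial cells release and that counters Tie2 signalling, stood at 598, 451 and 601 without Dox and 1766, 2489 and 2413 with Dox (log2 difference 2.01, SE 0.30, adjusted p = 0.0124). It was the 1 called gene of 7 in its list: Angpt1 was at 2.08 (adjusted p = 0.0736), Tie1 at 1.40 (0.0552) and Tek, which encodes Tie2, at 1.01 (0.115). Of 20 genes of the Notch pathway 7 rose and 0 fell. Nrarp, a target and feedback inhibitor of Notch, was at 48.9, 105 and 86.8 without Dox and 581, 502 and 389 with Dox (log2 difference 2.65, SE 0.45, adjusted p = 0.015). The receptor Notch4 rose by 1.80, the glycosyltransferase Mfng by 2.01 and the target Heyl by 1.47, while the ligand Dll4 was at 1.41 and did not pass (0.17). Of 25 endothelial transcription factors 11 rose and 0 fell, among them Tal1 (1.82), Sox7 (1.80), Ets1 (1.80) and Meox1 (1.49). Of 41 semaphorin, plexin, ephrin and related guidance genes 6 rose, led by the semaphorin receptor Plxnd1 (2.24) and by Sema6d (1.82), and 1 fell. Over all vessel lists, counting each gene once, 55 of 151 tested genes were called, 53 of them higher; 30 stayed called without the GC-apart pair, 26 without No Dox 1, 7 without Dox 3 and 1 (Kcne3) without Dox 2.

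**Figure D3:**
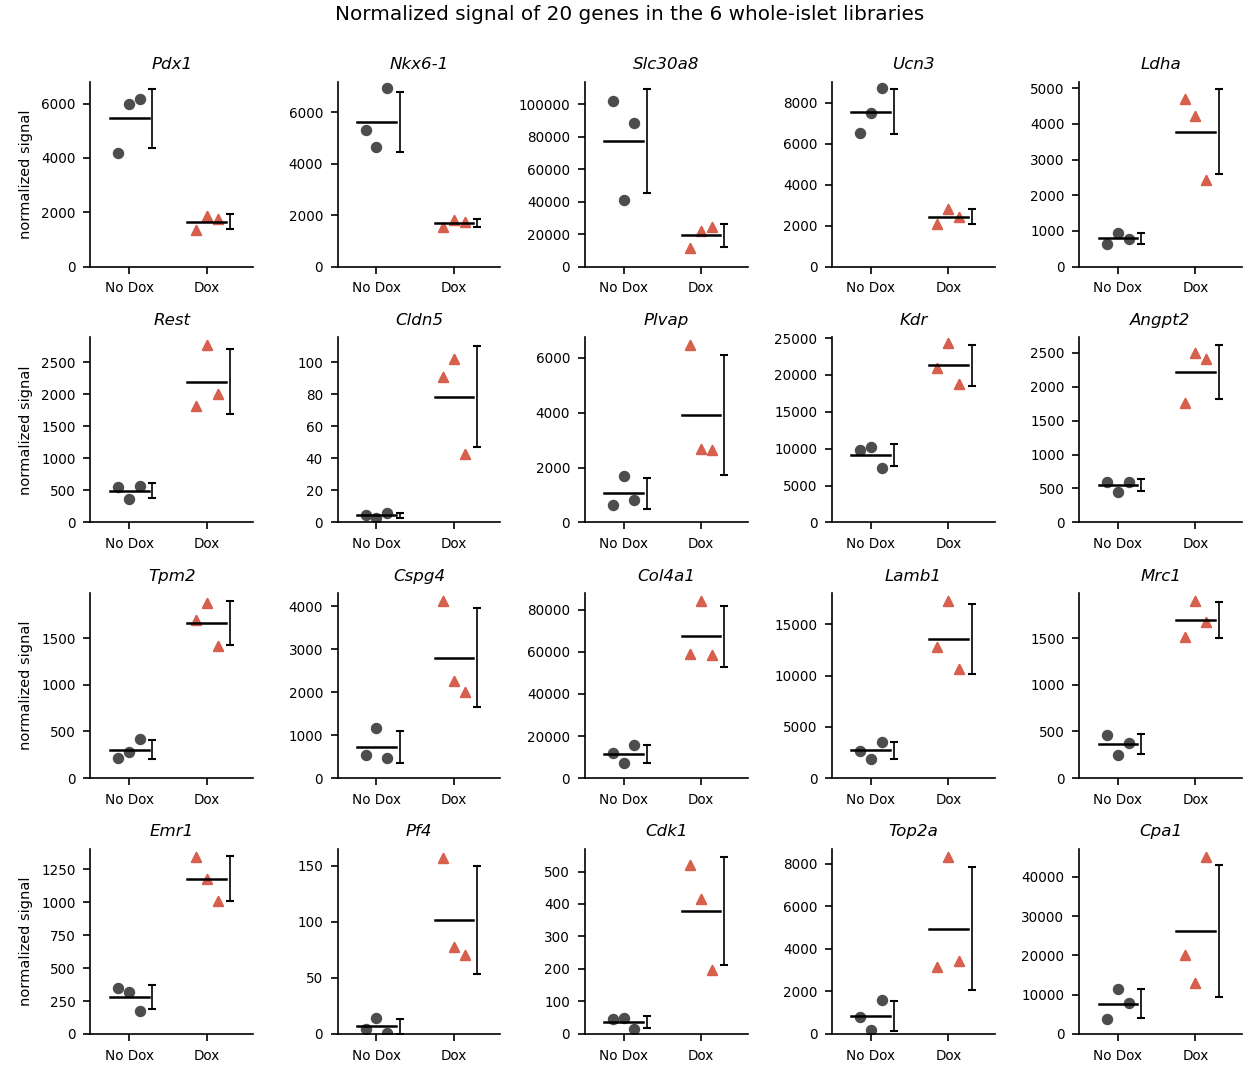
Normalized signal (linear, authors' scale) of 20 genes in the 3 No Dox (circles) and 3 Dox (triangles) libraries, in the order of replicates 1 to 3, with the mean as a line and 1 SD as a bar. In each of the 20 genes, picked for display, the groups do not overlap, which also held in 25.4% of all tested genes. Cpa1, an acinar enzyme gene, is shown for comparison and was not called.

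Genes of contractile vessel-wall cells rose as well. Of 26 smooth muscle genes 14 rose and 0 fell, with a list median of 1.83, and 11 of 26 were called without the GC-apart pair. Of the 14, 1 passed the filter only through its Dox values, and without it 13 of 25 rose, with a median of 1.74. Myh11, smooth muscle myosin heavy chain, was at 2503, 1466 and 1896 without Dox and 6501, 7894 and 8578 with Dox (log2 difference 1.99, SE 0.30, adjusted p = 0.0124). Tpm2, beta-tropomyosin, was at 218, 279 and 422 without Dox and 1696, 1881 and 1415 with Dox (log2 difference 2.48, SE 0.35, adjusted p = 0.0124), and Cnn2, a calponin, at 384, 357 and 452 without Dox and 2280.2, 2650.4 and 2120 with Dox (log2 difference 2.56, SE 0.29, adjusted p = 0.00906). Within each group these 3 genes varied less than 2-fold, and the groups lay far apart. Tagln and Myl9, further proteins of the contractile apparatus, rose by 2.04 and 2.32. Not all of the programme moved: the intermediate filament Des had 389, 749 and 79.3 without Dox and 1132, 314 and 321 with Dox, which overlapped (0.76, adjusted p = 0.681). Of 15 pericyte genes 3 rose. Cspg4, the proteoglycan NG2, was at 545, 1155 and 469.9 without Dox and 4114, 2267 and 2006 with Dox (log2 difference 1.99, SE 0.42, adjusted p = 0.0289), Higd1b rose by 2.00 and the adhesion molecule Mcam by 2.20. Cspg4 and Higd1b had means below 25% of their Dox islet mean in both sorted fractions. Mcam was at 15478 in sorted endothelial cells, above its Dox islet mean of 8963, so its rise is not particular to pericytes. Rgs5, the most abundant pericyte transcript here, had 116580, 39379 and 104780 without Dox and 170140, 400950 and 299470 with Dox. Its Dox values were all higher, but No Dox spread nearly 3-fold and the difference was not called (log2 difference 1.80, SE 0.60, adjusted p = 0.111). Pdgfrb, the receptor that recruits pericytes, was also not called (1.43, adjusted p = 0.13).

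Promoters of a pair of rising contractile genes are shown because both hold a CArG box, the site of serum response factor, which works with Myocd on this gene class. The windows run from 250 bases before to 50 after the start and are printed on the gene's strand, from RefSeq on GRCm38.p6, with the CArG letters in capitals. Myl9 lies at chr2:156775214-156775513 on the plus strand and Cnn2 at chr10:79988350-79988649 on the plus strand.
Myl9: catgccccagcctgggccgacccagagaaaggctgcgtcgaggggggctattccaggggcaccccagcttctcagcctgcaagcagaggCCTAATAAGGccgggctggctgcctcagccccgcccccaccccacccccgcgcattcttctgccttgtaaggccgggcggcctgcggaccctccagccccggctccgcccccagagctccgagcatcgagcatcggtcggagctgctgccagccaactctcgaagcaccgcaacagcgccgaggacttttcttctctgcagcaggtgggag
Cnn2: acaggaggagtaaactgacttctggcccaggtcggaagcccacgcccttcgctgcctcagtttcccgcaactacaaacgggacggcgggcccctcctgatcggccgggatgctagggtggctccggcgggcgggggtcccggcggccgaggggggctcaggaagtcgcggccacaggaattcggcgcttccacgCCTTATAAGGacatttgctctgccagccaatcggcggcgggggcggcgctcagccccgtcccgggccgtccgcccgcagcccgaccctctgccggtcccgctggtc
Myocd, the coactivator, was itself at 335, 58.8 and 121 without Dox and 1450.2, 1164 and 1636 with Dox (log2 difference 3.38, SE 0.57, adjusted p = 0.0139). The CArG box by its consensus (both strands searched) was found in 2 of the 10 rising contractile genes with a window in the table, in 2 of the 10 that were not called, and in 1.81% of the 27025 genes of the table. The letters therefore did not differ in frequency between called and uncalled members, and a match is not shown to be a bound site.

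Matrix genes rose in number. Over all mural, matrix and growth factor lists, 84 of 266 tested genes rose and 4 fell; 57 of these 88 stayed called without the GC-apart pair, 56 without No Dox 1, 25 without Dox 3 and 2 (Acta2 and Fn1) without Dox 2. Of 9 fibrillar collagen genes 5 rose, all of them low in both sorted fractions: Col1a1 was at 1778, 1401 and 2693 without Dox and 6648, 11252 and 8525 with Dox (log2 difference 2.19, SE 0.34, adjusted p = 0.0124), and Col1a2, Col5a1, Col5a2 and Col11a1 rose by 2.21, 2.24, 2.03 and 2.37. Of 25 other collagen genes 10 rose, including both chains of the vascular basement membrane: Col4a1 was at 11915, 7185 and 15647 without Dox and 58995, 84038 and 58674 with Dox (log2 difference 2.59, SE 0.40, adjusted p = 0.0124) and Col4a2 rose by 2.51. Col18a1, whose protein yields endostatin, went up by 3.00, at 245, 405 and 145 without Dox and 3304, 1645 and 1374 with Dox. Col6a6 fell by 1.31 on the log2 scale while Col6a1, Col6a2 and Col6a3 rose. Among laminins, the chains Lama4, Lamb1 and Lamc1, which together form the endothelial laminin 411, rose by 2.34, 2.35 and 2.24. Lamb1 was at 2691, 1874 and 3534 without Dox and 12800, 17270 and 10631 with Dox, with the lowest Dox value 3 times the highest No Dox value. In the FRAS and FREM complex, which ties epithelia to their basement membrane, Frem1 and Frem2 rose by 1.78 and 3.51. Fras1 fell by 1.39, and its partner Grip1 by 2.05.

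Enzymes that fold and crosslink collagen rose in part, 7 of 27, and 1 fell. Serpinh1, the collagen chaperone HSP47, stood at 701, 753 and 1251 without Dox and 3875, 6131 and 4141 with Dox (log2 difference 2.40, SE 0.34, adjusted p = 0.0124). Lox, lysyl oxidase, was at 358, 153 and 308 without Dox and 884, 2037 and 1377 with Dox (log2 difference 2.39, SE 0.44, adjusted p = 0.0185), and Fkbp10, a prolyl isomerase for collagen, rose by 2.91. Pcolce2, an enhancer of procollagen cleavage, fell by 2.15. Among matrix glycoproteins 14 of 33 rose and 0 fell. Tenascin C (Tnc) read 126, 71.8 and 71.8 without Dox and 786, 1053 and 589 with Dox (log2 difference 3.17, SE 0.43, adjusted p = 0.0119), periostin (Postn) rose by 2.70 and fibrillin (Fbn1) by 1.96. Thbs4 and Has2, which passed the filter only through their Dox values, were at or near the floor in No Dox islets and between 48.7 and 212 (Has2) or 63.3 and 123 (Thbs4) with Dox. Of the growth factor lists, 5 of 38 TGF-beta and BMP genes rose, with Tgfb3 at 106, 204 and 91.6 without Dox and 946, 759 and 645 with Dox (log2 difference 2.61, SE 0.43, adjusted p = 0.013). Of 15 CCN and YAP genes 8 rose, with the coactivators Yap1 (1152, 967 and 1031 without Dox and 2740.4, 2907 and 2799 with Dox) and Wwtr1 up by 1.43 and 2.29 and the target Ctgf by 1.65. Igf1 rose by 2.46 and its binding proteins Igfbp3, Igfbp5 and Igfbp7 by 1.67, 2.04 and 1.69. Wnt genes stood near the median of all genes, at 0.06, with 2 of 35 called: the inhibitor Dkk2 (2.28) and the receptor Fzd4 (1.49).

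**Figure D4:**
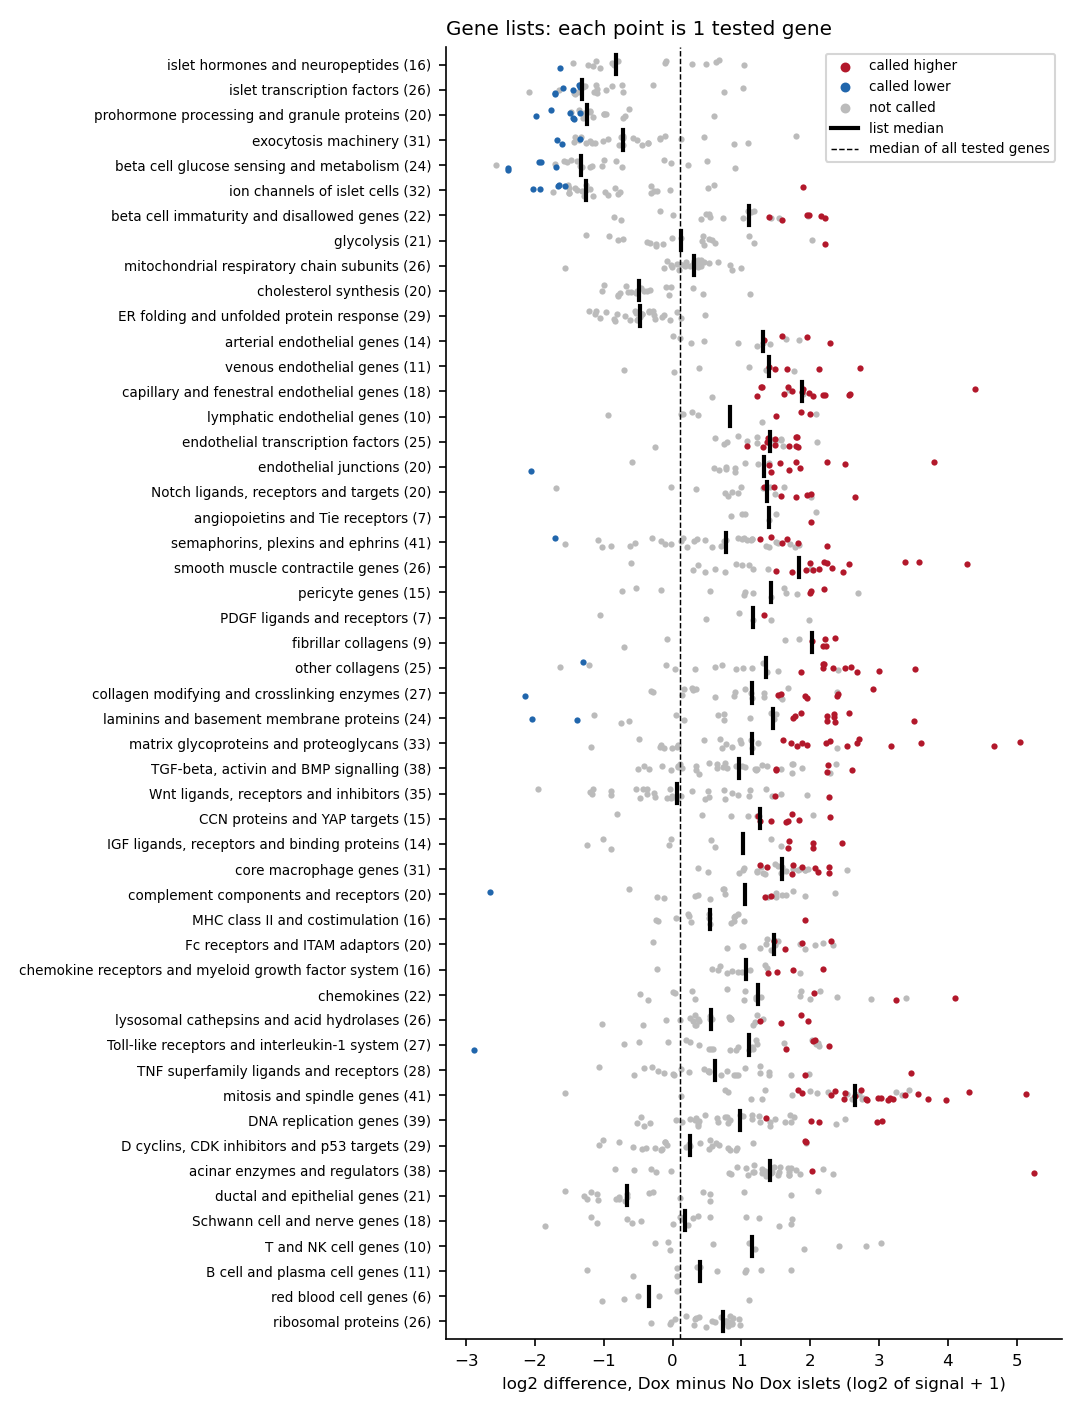
Log2 difference (Dox minus No Dox) of each tested gene in the 51 lists with 6 or more tested genes, coloured where called, with the list median as a bar and the median of all tested genes (0.11) as a dashed line. The medians of the islet transcription factor (-1.32) and granule (-1.25) lists lie left of the dashed line and those of the capillary (1.88), smooth muscle (1.83) and mitosis (2.65) lists right of it.

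Most beta cell genes lay below 0, and part of them fell. Over the endocrine lists, 26 of 167 tested genes fell and 7 rose; 12 of these 33 stayed called without the GC-apart pair, 12 without No Dox 1, 2 without Dox 3 and 0 without Dox 2. Of 26 islet transcription factors 6 fell and 0 rose, with a list median of -1.32. Pdx1, the factor that keeps beta cell identity, was at 4196, 5998 and 6173 without Dox and 1349, 1876 and 1756 with Dox (log2 difference -1.71, SE 0.30, adjusted p = 0.0154). Nkx6-1, which holds the beta cell programme, was at 5322, 4638 and 6930 without Dox and 1544, 1819 and 1747 with Dox (log2 difference -1.71, SE 0.28, adjusted p = 0.0136). The highest Dox value of the 2 genes, 1876, was below their lowest No Dox value, 4196. Nkx2-2, Pax6, Myt1 and Glis3 fell by 1.59, 1.35, 1.45 and 1.36.

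Prohormone processing and secretion followed the same direction. Of 20 granule genes 6 fell and 0 rose, with a median of -1.25, and their summed signal went from 2.27 to 3.51% of each No Dox library to 0.857 to 1.07% of each Dox library. Slc30a8, the zinc transporter of insulin granules, had 102090, 41396 and 88615 without Dox and 11323, 21798 and 24567 with Dox (log2 difference -1.98, SE 0.48, adjusted p = 0.0425). Its No Dox values spread more than 2-fold and the Dox values were all lower. Pcsk1, the prohormone convertase that cuts proinsulin, was at 6122, 7791 and 13915 without Dox and 2829, 3578 and 2964 with Dox (log2 difference -1.49, SE 0.35, adjusted p = 0.0398). Scg5, the chaperone of the other convertase Pcsk2, was at 6873, 8162 and 6763 without Dox and 2769.7, 2472 and 2735 with Dox (log2 difference -1.45, SE 0.27, adjusted p = 0.0185). Ero1lb, the disulfide oxidase of beta cells, fell by 1.76. Of 31 exocytosis genes 3 fell, the calcium sensors Syt7 and Syt13 and the active zone protein Rimbp2, by 1.34, 1.61 and 1.67. Of 16 hormone genes 1 fell, the peptide Ucn3 of mature beta cells, at 6506, 7483 and 8703 without Dox and 2083, 2816 and 2415 with Dox (log2 difference -1.63, SE 0.28, adjusted p = 0.0152). Ins1 was at 47987, 129040 and 104530 without Dox and 43291, 36380 and 32182 with Dox and Ins2 at 55131, 122820 and 120860 without Dox and 40358, 47754 and 41804 with Dox, near-identical paralogs whose reads could be shared. In both the Dox values lay below all No Dox values, as in 9.64% of all tested genes. Yet No Dox varied over 2-fold and neither passed (0.163 and 0.19). Gcg of alpha cells was at 219100, 219040 and 421190 without Dox and 114500, 182790 and 152820 with Dox. It was lower in all 3 Dox libraries and not called (log2 difference -0.89, SE 0.54, adjusted p = 0.409). Of the 16 hormone genes, 11 were below 0 and 5 above.

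Of 24 genes of glucose sensing and beta cell metabolism 5 fell and 0 rose, and all 5 stayed called without the GC-apart pair. Slc2a2, the glucose transporter GLUT2, was at 22417, 9567 and 35395 without Dox and 2249, 4735 and 4923 with Dox (log2 difference -2.39, SE 0.50, adjusted p = 0.0281), and G6pc2, the islet glucose-6-phosphatase, at 34501, 53964 and 85112 without Dox and 7066, 14226 and 10759 with Dox (log2 difference -2.40, SE 0.43, adjusted p = 0.0171). In both the lowest value was Dox 1. Casr, the calcium-sensing receptor, was at 6940.2, 6357 and 8095 without Dox and 1789, 2107 and 2772 with Dox (log2 difference -1.70, SE 0.29, adjusted p = 0.0151), the prolactin receptor Prlr fell by 1.92 and the cation channel Trpm5 by 1.95. Of 32 ion channels 5 fell, among them Kcnma1, Gria2 and Scn3a, by 1.65, 1.67 and 1.56. Ano1, a calcium-activated chloride channel, was the 1 that rose, at 2767, 1783 and 1978 without Dox and 8023, 7851 and 7994 with Dox (log2 difference 1.90, SE 0.29, adjusted p = 0.0124). Its Dox values were nearly equal. Both sorted fractions held less Ano1 than Dox islets, with means of 903 in endothelial cells and 290.1 in macrophages.

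The vitamin D receptor Vdr, outside those lists, was among the falls that held best: 3746, 5578 and 4717 without Dox and 892, 948 and 795 with Dox, with log2 difference -2.40, SE 0.29, adjusted p = 0.0097, and it stayed called under each alternative except the one without Dox 2 (adjusted p = 0.0783).

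Genes that mature beta cells keep low, called disallowed genes, were tested together with immaturity genes. Of these 22, 6 rose and 0 fell, with a median of 1.11. Ldha, lactate dehydrogenase A, was at 643, 949 and 788 without Dox and 4687, 4228 and 2432 with Dox (log2 difference 2.21, SE 0.34, adjusted p = 0.0124). Rest, a repressor of neuronal genes, was at 554, 363 and 566 without Dox and 1814, 2773 and 2004 with Dox (log2 difference 2.15, SE 0.33, adjusted p = 0.0124). Arhgdib, Zyx, Smad3 and Ndrg2 also rose, by 1.98, 1.96, 1.59 and 1.40. Other cell types of the islet hold these transcripts: in sorted endothelial cells and macrophages Ldha had means of 6464 and 5329 and Rest of 2723 and 2672, above their Dox islet means of 3782 and 2197. The part of these cells in the rise was not tested. Ndrg2 differed, with 134 and 58.4 in the fractions against 1919 in Dox islets.

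Core metabolism and stress pathways gave few or no calls, where 5.74% of all tested genes were called. At that share lists of 20 to 29 genes hold few calls, so the count of a single list is not read as a result. Ldha was the 1 called gene of 21 in glycolysis, and 0 were called of 26 respiratory chain genes, 20 cholesterol synthesis genes and 29 genes of protein folding in the endoplasmic reticulum. The medians of those 3 lists were 0.31, -0.49 and -0.48, with 1, 4 and 6 members at an unadjusted p under 0.05 in limma, against 20.8% of all tested genes. Hspa5, the chaperone BiP, was at 15601, 22698 and 30122 without Dox and 13793, 21476 and 14235 with Dox and Ddit3, the stress factor CHOP, at 584, 348 and 494 without Dox and 322, 311 and 339 with Dox. Neither was higher with Dox, at -0.45 and -0.52. Wfs1, a beta cell protein of the reticulum, came nearest to a call there (-1.12, adjusted p = 0.0848).

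Part of the macrophage genes rose in whole islets. Over the immune lists, 30 of 195 tested genes rose and 2 fell; of these 32, 11 stayed called without the GC-apart pair, 13 without No Dox 1, 2 without Dox 3 and 0 without Dox 2. Of 31 core macrophage genes 9 rose and 0 fell, and the summed signal of the list went from 0.055 to 0.092% of each No Dox library to 0.147 to 0.236% of each Dox library. Mrc1, the mannose receptor CD206, was at 463, 249 and 372 without Dox and 1515, 1899.7 and 1672 with Dox (log2 difference 2.27, SE 0.34, adjusted p = 0.0124). Emr1, which encodes F4/80, was at 348, 322 and 173 without Dox and 1348, 1179 and 1009 with Dox (log2 difference 2.12, SE 0.37, adjusted p = 0.016). The haptoglobin scavenger receptor Cd163, the fractalkine receptor Cx3cr1 and the efferocytosis receptor Mertk rose by 2.07, 1.74 and 1.38. Csf1r, the growth factor receptor of the lineage, had 698, 1008 and 359 without Dox and 2228, 1368 and 1340.4 with Dox. It was higher in all 3 Dox libraries but not called (log2 difference 1.34, SE 0.42, adjusted p = 0.0945).

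Several innate receptors and lysosomal genes moved with them. Tlr4, Tlr7, Tlr8 and Tlr13 rose by 1.65, 2.03, 2.27 and 2.07, and 4 of 20 Fc receptor and ITAM genes rose, such as Fcgr3 at 79.5, 76.2 and 123 without Dox and 449, 464 and 438 with Dox (log2 difference 2.30, SE 0.41, adjusted p = 0.0167). Of 26 lysosomal genes 4 rose. Ctsc, the protease that activates granule serine proteases, was at 1234, 941 and 836 without Dox and 3758, 4771 and 3227 with Dox (log2 difference 1.96, SE 0.30, adjusted p = 0.0124). Among 22 chemokine genes 3 were called higher. Ccl9 rose by 2.06. The others, Ccl7 and Pf4, were at 14.2 or less in each No Dox library and passed the filter only through their Dox values. Ccl2, the main monocyte attractant, was at 98.7, 29.0 and 5.99 without Dox and 157, 462 and 333 with Dox and did not pass (log2 difference 3.40, SE 0.90, adjusted p = 0.0572), and Ccl2, Ccl7 and Ccl12 are close paralogs whose reads could be split. The antigen presentation genes lay nearer the median, at 0.54, with Cd40 called of 16. The genes that fell were C7, a component of the complement membrane attack complex, at 3324, 1687 and 1582 without Dox and 126, 499 and 562 with Dox (log2 difference -2.65, SE 0.56, adjusted p = 0.0293), and Il1r2, the decoy receptor of interleukin-1, at 262, 533 and 259.6 without Dox and 46.6, 21.8 and 82.2 with Dox (log2 difference -2.89, SE 0.60, adjusted p = 0.0266).

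Genes of mitosis had the highest median of these 51 lists, 2.65, with 21 of 41 tested genes called higher and 40 of 41 above 0. Of these 41, 3 passed the filter only through their Dox values, and without them 19 of 38 were called and the median was 2.63. Over the cell cycle lists, 28 of 109 genes were called, all higher; 5 stayed called without the GC-apart pair, 9 without No Dox 1, 3 without Dox 3 and 0 without Dox 2. Cdk1, the kinase that drives entry into mitosis, was at 46.7, 49.99 and 14.97 without Dox and 521, 416 and 198 with Dox (log2 difference 3.38, SE 0.63, adjusted p = 0.0185). Its partner cyclin Ccnb1 was at 23.9, 8.27 and 50.9 without Dox and 217, 469 and 259.5 with Dox (log2 difference 3.71, SE 0.70, adjusted p = 0.0196), and Top2a, the topoisomerase of condensing chromosomes, at 773, 201 and 1595 without Dox and 3139.7, 8291 and 3408 with Dox (log2 difference 2.82, SE 0.68, adjusted p = 0.0418). In all 3 the groups did not overlap, but each group spread over 2-fold. Kif2c, a kinesin of the spindle, was listed at the floor of 1 in all 3 No Dox libraries and at 114, 111 and 25.8 with Dox, and is 1 of those 3. Mki67, the proliferation marker, was at 2110, 341 and 2755 without Dox and 4487, 16946 and 8046 with Dox and just failed (log2 difference 2.75, SE 0.74, adjusted p = 0.0607). Spc25, a kinetochore protein, was the exception at -1.57, not called. Its signal of 3819, 5283 and 15698 without Dox and 1516, 2928 and 2722 with Dox lay above its levels in the sorted fractions, 1244 and 599.

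Of 39 genes of DNA replication 5 rose and 0 fell, with a median of 0.98. The chromatin factor Uhrf1 and the repressor E2f8 rose by 2.97 and 3.04, the kinase subunit Dbf4 by 2.13, the polymerase Pole by 2.01 and the helicase subunit Mcm6 by 1.36. Pcna, the sliding clamp, was at 1073, 898 and 1355 without Dox and 1085, 2151 and 1200 with Dox and was not called (log2 difference 0.37, SE 0.35, adjusted p = 0.647). Both sorted fractions held mitotic transcripts: the mean of Cdk1 was 812 in endothelial cells and 376 in macrophages, and of Top2a 7254 and 6600.3. None of the 21 called mitosis genes differed between the fractions by more than 2 on the log2 scale. Which cells of the whole islet divided was not tested.

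Promoters are shown for a pair of mitosis genes because such genes are known to share the cell cycle homology region (CHR, letters TTTGAA) and CCAAT boxes, to which the DREAM complex and NF-Y bind. The windows are as above, on the gene's strand, with every match to TTTGAA or CCAAT on either strand in capitals. Cdk1 lies at chr10:69352863-69353162 on the minus strand, and Ccnb1 at chr13:100786437-100786736 on the minus strand.
Cdk1: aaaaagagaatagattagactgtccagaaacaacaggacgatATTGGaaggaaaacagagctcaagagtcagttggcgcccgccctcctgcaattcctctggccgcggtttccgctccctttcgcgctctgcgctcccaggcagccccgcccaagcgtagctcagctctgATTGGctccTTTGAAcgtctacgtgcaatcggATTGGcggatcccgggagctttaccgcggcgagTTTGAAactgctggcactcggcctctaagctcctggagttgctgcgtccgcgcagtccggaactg
Ccnb1: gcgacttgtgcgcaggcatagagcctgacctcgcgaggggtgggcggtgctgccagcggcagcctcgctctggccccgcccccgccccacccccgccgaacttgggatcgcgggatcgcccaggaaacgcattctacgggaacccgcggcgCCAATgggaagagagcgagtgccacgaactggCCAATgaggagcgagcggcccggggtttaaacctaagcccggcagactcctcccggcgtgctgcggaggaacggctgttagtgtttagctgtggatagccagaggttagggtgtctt
The Cdk1 window holds both motifs and the Ccnb1 window 2 CCAAT boxes. TTTGAA was found in 24 of the 33 tested mitosis genes with a window in the table, against 20.2% of all 27025 genes, and CCAAT in 24 of 33, against 41.1%. In DNA replication genes TTTGAA was found in 7 of 33. Among mitosis genes the motif did not separate called from uncalled members: it was in 12 of 17 called and 12 of 16 uncalled genes. A match is a description of letters and not of binding.

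Set against the sorted fractions, the rises and falls had different profiles. The fractions came from other libraries than those tested. Of the 625 genes that rose, 292 (46.7%) were higher by more than 2 on the log2 scale in endothelial cells than in macrophages, against 12.3% of all tested genes, and 64 (10.2%) were higher in macrophages, against 11.5%. Of the 204 genes that fell, 153 (75%) had means in both fractions below 25% of either islet mean, against 9.44% of all tested genes. By the difference between fractions, 79 of the 204 (38.7%, against 11.5% of all tested genes) were on the macrophage side. On the endothelial side were 13 (6.37%, against 12.3%). For genes low in both fractions this difference compares small signals. Slc30a8, for example, had means of 237 in macrophages and 25.4 in endothelial cells, against 77366 in No Dox islets. Against 25% of the Dox islet mean alone, 88 of the rising genes were low in both fractions (14.1%, against 10.8% of all tested genes). This measure is looser for a rising gene, which has the higher values in Dox islets. Against 25% of either islet mean, as for the falls, 17 of the 625 were low in both (2.72%, against 9.44%). The 88 are not a separate class: Myh11 and Tpm2, for example, are also among the 292. Of these 88, 36 were in the mural, matrix and growth factor lists, among them 5 of 5 rising fibrillar collagens, 9 of 14 matrix glycoproteins and 8 of 14 smooth muscle genes, and 47 were in no list. Those 9 and 8 include genes that passed the filter only through their Dox values. An example chosen after its values were seen is Aoc3, vascular adhesion protein 1 of smooth muscle and fat, at 1005, 953 and 724 without Dox and 4560.4, 4829 and 4546 with Dox (log2 difference 2.39, SE 0.28, adjusted p = 0.00906). Within each group it varied less than 2-fold, and each fraction had a mean of 446 or less. Both endothelin receptor genes rose as well: Ednra by 2.16 and Ednrb by 2.19, with Ednra at 848 and Ednrb at 30175 in endothelial cells.

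**Figure D5:**
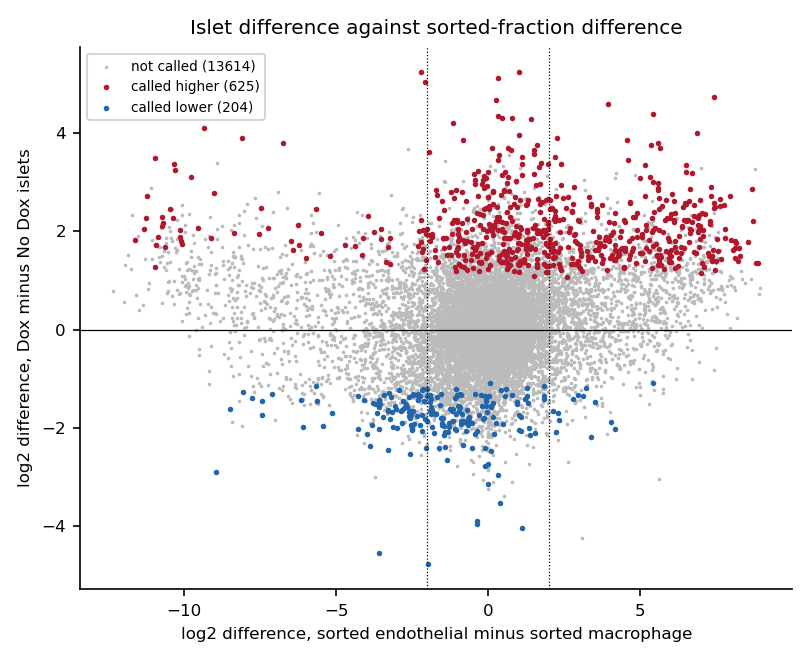
Difference between sorted endothelial cells and macrophages (x axis, log2) against the difference between Dox and No Dox islets (y axis, log2) for the 14443 tested genes, coloured where called, with dotted lines at 2 and -2. Of the 625 genes called higher, 292 lie right of the right line and 64 left of the left line.

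Markers of other cells that isolated islets can carry were measured beside these results. Of 38 acinar genes 2 were called higher and 20 were at an unadjusted p under 0.05, all of those higher. The list median was 1.41, with summed signal of 0.276 to 0.848% of each No Dox library and 0.642 to 2.07% of each Dox library, which overlap. Cpa1, an acinar carboxypeptidase, was at 3914, 11399 and 7844 without Dox and 20177, 13084 and 45133 with Dox (log2 difference 1.70, SE 0.52, adjusted p = 0.0893). The called members were Reg3g, listed at the floor in all No Dox libraries and at 22.3, 129 and 145 with Dox, which passed the filter only through those values, and the nuclear receptor Nr5a2, which rose by 2.02 and was at 3355 in sorted endothelial cells. Of 21 ductal, 18 Schwann cell, 10 T and NK cell, 11 B cell and 6 red blood cell genes 0 were called, with 4, 6, 3, 2 and 0 at an unadjusted p under 0.05 in limma. Over all tested genes that share was 20.8%, and 5.74% were called. Adipoq, the adipocyte marker, was at the floor in all 6 libraries. Cpa3, a mast cell carboxypeptidase, was at the floor in all 3 No Dox libraries and at 49.2, 119 and 70.2 with Dox, and was tested only through those values. The other 3 tested genes of its list were not called. The part of acinar RNA in the results was not tested. The 26 ribosomal protein genes gave 0 calls, with a median of 0.73 and 3 at an unadjusted p under 0.05.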

How the data were processed

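RNA sequencing of 6 whole-islet libraries was analysed, with the 6 sorted libraries for levels only. The deposited values are the authors' normalized signal per gene. The submitters' processing notes name TopHat2 2.0 and mm9. The counting, annotation, strand setting and normalization are not stated there. A symbol with several entries was reduced to 1, leaving 22711 of 22793 rows, and 25 symbols stored as dates were restored. Genes with a signal of 15.5 or more (the 40th percentile of non-zero values) in at least 3 of the 6 libraries were tested: log2 of (signal + 1) was fitted with limma 3.58.1 in R 4.3.3, with a trended prior and no covariate, at an adjusted p of 0.05. The fit was tested on simulated data. The alternatives changed scaling, filter, pseudocount, GC trend, libraries and block.

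The genes and the 54 lists were chosen with earlier results of these data known. The naming rule took the largest non-overlapping changes at high signal (12 each way) and up to 4 genes a list. It also took genes called with the same sign under every alternative fixed for this comparison (up to 15 each way, which gave 5). The 10 highest signals, and Vegfa with its receptors, completed it. Of the 181 genes named, 98 follow it, and the other 83 were chosen after their values were seen. The rule covers 223 genes, of which 125 are not named.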

Additional observations from a re-analysis of the deposited data

How the results depend on the processing

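The number of called genes, 829 with 625 higher and 204 lower, moved by over 1.5 times under several settings. It was 405 (322 and 83) with no filter beyond dropping genes at the floor, 1658 (946 and 712) with each library's GC trend removed, 1606 (1284 and 322) with the 4 groups fitted together and 302 (268 and 34) without No Dox 2 and Dox 1. Quantile normalization gave 374 lower. Leaving out 1 library gave 5 to 815 calls, 4 to 605 higher and 1 to 210 lower. A pair of alternatives was chosen after seeing the data: keeping genes at the floor gave 97 (78 and 19), and replicates 2 and 3 of both groups, whose library numbers run in 1 series, gave 315 (292 and 23). The cause of these moves was not tested. Same-numbered No Dox and Dox libraries have consecutive library numbers, but the labels do not say that they were paired. They did not deviate together (correlations -0.25, -0.54 and 0.16). The GC-apart pair, No Dox 2 with Dox 1, correlated at 0.78 and weighs on these values, so they cannot settle the pairing. The reported fit took no pairs, and the fit with the replicate number as a block called 679 genes, 576 of them among the 829.

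At a fraction difference of 1 in place of 2, the macrophage side held 97 of the rising genes, against 64 at 2. Of the falling genes, the endothelial side held 28, 13 and 7 at differences of 1, 2 and 3, and the macrophage side 120, 79 and 41. Of the named genes, Des (-0.15 without No Dox 3) was the 1 whose sign turned. Read depth is unknown, so low values such as those of Cldn5 carry no interval.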

Other observations

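Several called genes were not named in the groups described above. Among the largest rises at high signal, Kcnj2, an inward rectifier potassium channel, was at 169, 119 and 289 without Dox and 1531, 1404 and 1960.5 with Dox (log2 difference 3.16, SE 0.40, adjusted p = 0.0099). Adam12, a metalloprotease, stood at 1184, 491 and 611 without Dox and 7116, 7397 and 5316 with Dox (log2 difference 3.21, SE 0.37, adjusted p = 0.00906), and Ppic, a cyclophilin, at 1423, 742 and 2206 without Dox and 8961, 15447 and 10673 with Dox (log2 difference 3.10, SE 0.42, adjusted p = 0.0119). In all 3 the lowest Dox value was several times the highest No Dox value. Means in sorted endothelial cells were 15619 for Adam12, 17591 for Ppic and 2397 for Kcnj2. In sorted macrophages they were 181, 459 and 1124. Among the largest falls, the metabotropic glutamate receptor Grm3 was at 1817, 816 and 378 without Dox and 88.1, 64.0 and 208 with Dox (log2 difference -2.96, SE 0.63, adjusted p = 0.0293) and the small-conductance potassium channel Kcnn3 at 4761, 4855 and 5214 without Dox and 733, 1184 and 1489.9 with Dox (log2 difference -2.18, SE 0.32, adjusted p = 0.0124). Enzymes of transmitter synthesis that beta cells express, chosen after their values were seen, also fell: Gad1, which makes GABA, by 1.56, at 4615, 2776 and 2316 without Dox and 1389.7, 771 and 1071 with Dox, and Ddc, which makes dopamine and serotonin from their precursors, by 1.32, at 8549.7, 6793 and 10386 without Dox and 2921, 3582 and 3683 with Dox. Without Dox 2, none of these 7 genes was called.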
